A study of Mus musculus with 8 samples.

Results

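Heat shock proteins are molecular chaperones, and the genes described here are the cytosolic and mitochondrial heat shock proteins, the cochaperones that work with them and the heat shock factors that switch them on. The 41 genes were listed by name from these families, by a rule that uses no measured value, though with earlier results of these data known, and all 41 were among the 54532 genes counted in RNA-seq libraries of mouse bone marrow B cells. Of them, 38 had enough reads to be tested, among 15305 genes tested in all. Bone marrow B cells were taken from mice after ovariectomy (OVX), which removes the ovaries and is used as a surgical model of menopause, or after a sham operation (Sham), with 3 libraries in each group. The labels give only "OVX" or "Sham" as the treatment of these libraries and name no strain, age, time after surgery, allele or agent for them. They do not say whether each library came from a separate mouse. The study's figure captions give n = 3 for this comparison, without stating that each library is a single mouse. The p-values therefore measure the spread between these libraries, which may be technical. The cells were isolated by magnetic sorting as total B cells, without separation by stage. The study concerned HIF-1α and the chaperone HSP70 in B cells under estrogen deficiency, and the comparison of OVX with Sham asks how the chaperone genes stood in cells from the animal.

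HSP70 proteins bind exposed hydrophobic stretches of unfolded proteins and release them by a cycle of ATP binding and hydrolysis. HSP40 (J domain) proteins bring substrates to HSP70 and trigger hydrolysis, HSP110 and BAG proteins exchange the nucleotide, and HSP90 takes over near-native clients such as kinases and steroid hormone receptors. Under heat or other protein damage, the factor HSF1 binds heat shock elements in promoters and induces one set of chaperones strongly, whereas their close paralogs are made constitutively. The members were therefore sorted by textbook knowledge into 10 inducible genes, 5 intermediate genes that are abundant at rest and induced further, 13 constitutive genes, 10 genes known mainly from other tissues and here called restricted, and 3 heat shock factors.

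The libraries held between 23838775 and 33136701 counted reads. Every pair differed beyond sampling noise. The Sham libraries differed widely from each other: the chi-square per gene was 58.4 for Sham 1 with Sham 2, 41.6 for Sham 2 with Sham 3 and 34.8 for Sham 1 with Sham 3. Sham 1 was nearer to each OVX library, at 9.46 to 13.0, than to either of the other Sham libraries. Sham 3 was also nearer to OVX 1, at 18.7, than to either of the other Sham libraries. Sham 2 was far from every library, the nearest being Sham 3 at 41.6 and OVX 1 at 42.0. B cell identity was clear, since each of 12 general B cell genes was at 322 CPM or more in every library (counts relative to the library's total, scaled with edgeR's TMM factors). Transcripts of other cell types were also present, and a share of reads is not a share of cells. The summed share of 18 neutrophil genes was 0.272%, 0.376% and 1.05% of the reads in Sham 1, 2 and 3 and 0.440%, 0.118% and 0.128% in OVX 1, 2 and 3. The corresponding share was at most 0.274% for 16 monocyte and macrophage genes, 0.144% for 6 plasma cell genes, 0.0570% for 11 erythroid genes, 0.0359% for 10 megakaryocyte genes, 0.0275% for 9 endothelial genes, 0.00811% for 12 T and NK cell genes and 0.00742% for 12 stroma genes. In such bulk samples, fewer cells of a type and less RNA per cell cannot be told apart.

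No chaperone gene differed between OVX and Sham past the threshold. The inducible HSP70 genes Hspa1a and Hspa1b were the members that varied most, and they did so within the Sham group: Sham 1 was at least as high as the highest OVX library, while Sham 2 and Sham 3 were far below it and also below every OVX library. The groups overlapped for the constitutive HSP70 gene Hspa8, the cytosolic HSP90 genes and Hsf1. The mitochondrial chaperonin gene Hspd1 was slightly lower in all OVX libraries than in all Sham libraries.

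In numbers, 0 of 38 tested members were called by edgeR's quasi-likelihood test (Benjamini-Hochberg adjusted p under 0.05 over all genes tested, and a fold change no smaller than 1.6), where 0% of all genes tested were called. DESeq2 also called 0. At an unadjusted p under 0.05 there was 1 member, Hspd1, which was lower. Among all genes tested, 2.28% were lower and 1.47% were higher at that level. The sign of the fitted difference was positive for 21 members and negative for 17, so that 55.3% were higher in OVX at any size, against 48.2% of all genes. The median log2 fold change of the members was 0.03, against -0.01 over all genes tested. These directions depended on the processing. The count of members higher in OVX was 14 with scaling on the B cell genes and 15 with the neutrophil share as a covariate. It was 18 to 23 when each library was left out in turn. With scaling on the B cell genes the median was -0.03 for the members and -0.07 over all genes tested. The lowest OVX library exceeded the highest Sham library for 2 members (5.26%), Dnajb4 and Hsf2, where the share over all genes was 4.33%. The highest OVX library was below the lowest Sham library for 3 members (7.89%), Hspd1, Hspa9 and Trap1, where the share over all genes was 4.12%. With 3 libraries against 3, the smallest p of the two-sided exact permutation test is 0.1, so that test cannot pass 0.05 for a single gene.

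**Figure D1:**
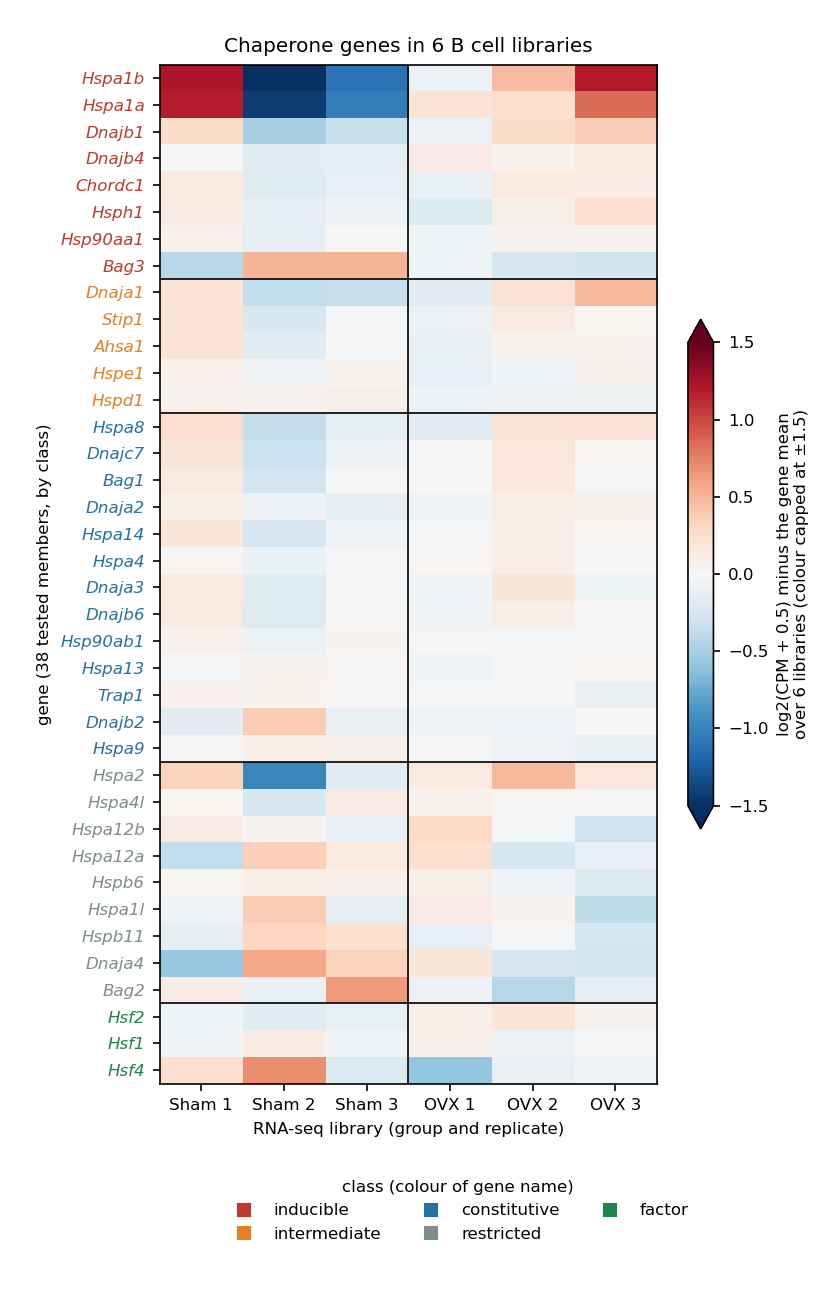
Level of the 38 tested chaperone genes (vertical axis, grouped by class) in the 6 libraries (horizontal axis), coloured by log2(CPM + 0.5) minus the gene's mean over the 6 libraries, with the colour capped at 1.5 either way. Hspa1a and Hspa1b have the deepest colours, red in Sham 1 and blue in Sham 2 and Sham 3, and Bag3 has the opposite colours.

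Hspa1a and Hspa1b encode the heat-inducible cytosolic HSP70 and are near-identical neighbours on chromosome 17. Hspa1b lies at chr17:34956429-34959238 and Hspa1a at chr17:34969359-34972156, with 10120 bases between them (RefSeq, assembly GRCm38.p6, the mm10 build). Their promoters, 250 bases before to 50 bases after each start, differ at 4 of 300 bases. They are shown whole, since both genes varied together in these libraries and reads from one copy can be assigned to the other. Capitals mark the bases that differ, both sequences are from the minus strand, and the windows are chr17:34972107-34972406 for Hspa1a and chr17:34959189-34959488 for Hspa1b.
Hspa1a: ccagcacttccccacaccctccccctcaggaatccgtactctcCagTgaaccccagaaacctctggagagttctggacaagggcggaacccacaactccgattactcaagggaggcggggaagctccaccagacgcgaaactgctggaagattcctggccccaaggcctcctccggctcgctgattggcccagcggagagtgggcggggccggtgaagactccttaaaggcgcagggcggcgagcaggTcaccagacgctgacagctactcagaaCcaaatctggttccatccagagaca
Hspa1b: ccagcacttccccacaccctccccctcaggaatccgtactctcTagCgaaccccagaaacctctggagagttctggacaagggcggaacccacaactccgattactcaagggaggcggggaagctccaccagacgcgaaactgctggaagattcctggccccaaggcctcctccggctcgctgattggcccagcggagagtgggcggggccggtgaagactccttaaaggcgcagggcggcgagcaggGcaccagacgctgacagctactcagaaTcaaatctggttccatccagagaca

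Hspa1a was counted at 100, 8 and 13 reads in Sham 1, 2 and 3 and at 47, 56 and 107 reads in OVX 1, 2 and 3. This corresponded to 4.22, 0.282 and 0.523 CPM in Sham and to 1.91, 1.97 and 3.24 CPM in OVX. Sham 1 was above all OVX libraries, and Sham 2 and Sham 3 were below all of them. The level of Hspa1a was 1.67 ± 2.21 CPM in Sham and 2.37 ± 0.747 CPM in OVX (mean ± SD, n = 3 each), with a log2 fold change of 0.52 ± 0.88 (SE) and an adjusted p of 0.882 in edgeR's test, and p = 0.4 in the exact permutation test.

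Hspa1b carried more reads and had the same pattern. Its counts were 538, 75 and 103 in Sham 1, 2 and 3 and 220, 379 and 736 in OVX 1, 2 and 3, or 22.7, 2.64 and 4.14 CPM in Sham and 8.95, 13.4 and 22.3 CPM in OVX. The groups overlapped only through Sham 1. Its level was 9.82 ± 11.2 CPM in Sham and 14.9 ± 6.78 CPM in OVX, with a log2 fold change of 0.60 ± 0.77 (SE), an adjusted p of 0.854 in edgeR's test and p = 0.4 in the exact permutation test.

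Between 4.68 and 9.38 reads were assigned to Hspa1b for each read of Hspa1a, and how the counting divided reads between the copies is not given in the sources used here. The sum of both copies does not depend on that division, but it misses any reads left out for matching both copies. It was 26.9, 2.92 and 4.66 CPM in Sham 1, 2 and 3 and 10.9, 15.3 and 25.5 CPM in OVX 1, 2 and 3. The highest Sham library was thus 9.21 times the lowest one, which was also the ratio of the highest to the lowest of all 6 libraries, and the exact permutation test of OVX against Sham gave p = 0.4.

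The size of this comparison depended on single libraries. Without Sham 1, the log2 fold change in edgeR was 2.56 for Hspa1a (unadjusted p = 0.00119) and 2.14 for Hspa1b (unadjusted p = 0.0025), each with an adjusted p of 0.273. Without Sham 2 it was 0.01 for Hspa1a and 0.15 for Hspa1b, without Sham 3 it was 0.10 and 0.24, and without OVX 3 it was 0.23 and 0.19. With the replicate number as a block, by which the libraries showed no sign of pairing, it was 1.38 for Hspa1a and 1.24 for Hspa1b (unadjusted p = 0.194 and 0.209). With the neutrophil share as a covariate it was -0.09 for Hspa1a and -0.07 for Hspa1b. OVX 2, OVX 3 and Sham 1 had the lowest neutrophil shares (0.118%, 0.128% and 0.272%). They had the highest Hspa1a plus Hspa1b (15.3, 25.5 and 26.9 CPM). OVX 1, Sham 2 and Sham 3 had higher shares (0.440%, 0.376% and 1.05%) and lower sums (10.9, 2.92 and 4.66 CPM). The extremes did not match: the neutrophil share was highest in Sham 3 and lowest in OVX 2. Hspa1a plus Hspa1b was lowest in Sham 2 and highest in Sham 1. Beyond this covariate, the part of neutrophils in the HSP70 levels was not tested. The immediate early genes, a list of 18 that responds to handling within minutes to hours, made up 0.198%, 0.217% and 0.215% of the reads in Sham 1, 2 and 3 and 0.230%, 0.214% and 0.196% in OVX 1, 2 and 3. Their share overlapped between the groups (exact permutation p = 1) and was about as low in Sham 1 as in OVX 3, the libraries with the most Hspa1a plus Hspa1b. Most of this sum came from a few abundant genes such as Btg2 and Klf2. Gene by gene, 3 of the 18 were higher and 15 lower in OVX at any size (16.7% higher, against 48.2% of all genes tested), with a median of -0.19. Sham 2 and Sham 3 were the highest libraries for 7 of the 18, against 15.2% of all genes tested. The part of these genes in the HSP70 levels was not tested.

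**Figure D2:**
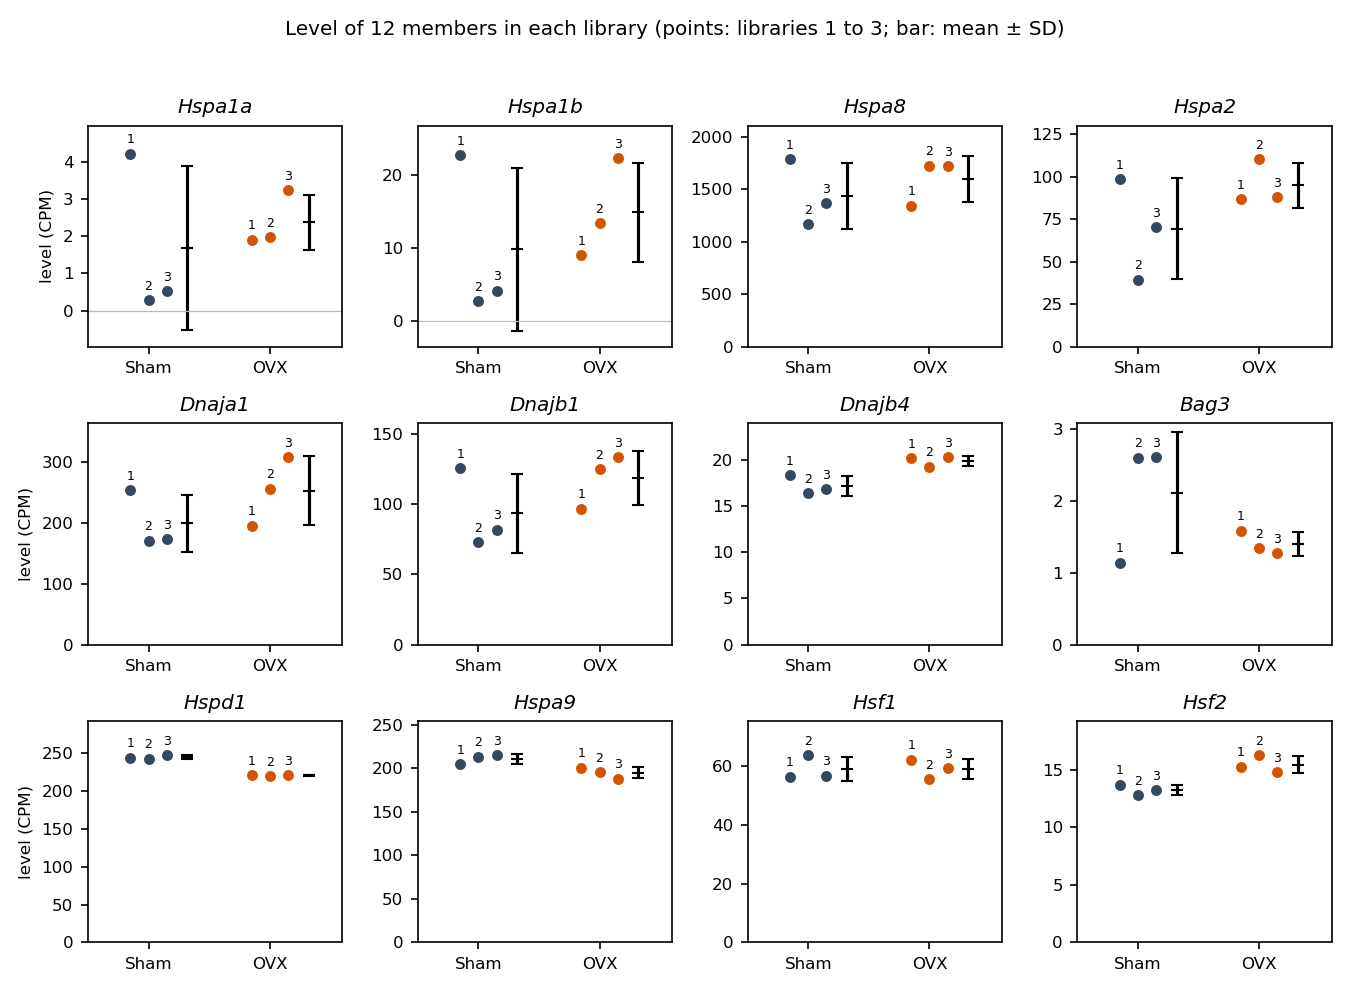
Level in CPM (vertical axes, each panel on its own scale) of 12 chaperone genes in the 3 Sham and 3 OVX libraries. Points are libraries numbered 1 to 3 and bars are the mean ± SD of a group. For Hspa1a and Hspa1b, Sham 1 lies at or above the OVX points and Sham 2 and 3 lie below them, whereas the Hspd1 points stand close together in each group, near 245 CPM in Sham and 221 CPM in OVX.

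Hspa8 encodes HSC70, the constitutive cytosolic HSP70 that also serves chaperone-mediated autophagy and clathrin uncoating. Its level was 1785, 1167 and 1365 CPM in Sham 1, 2 and 3 and 1344, 1724 and 1720.1 CPM in OVX 1, 2 and 3. Sham 1 was the highest and Sham 2 the lowest, so the order of the Sham libraries was that of Hspa1b, at a far smaller range. The log2 fold change was 0.15 ± 0.17 (SE), with an adjusted p of 0.845 in edgeR's test.

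Hspa2, best known from spermatogenesis, was well expressed in these B cells. It stood at 98.4, 39.4 and 70.2 CPM in Sham 1, 2 and 3 and at 86.8, 110.1 and 87.9 CPM in OVX 1, 2 and 3. Sham 2 and Sham 3 were again below all other libraries. The log2 fold change was 0.45 ± 0.30 (SE), with an adjusted p of 0.811 in edgeR's test, and it was 0.79 without Sham 1 and 0.17 without Sham 2.

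Hspa9 encodes mortalin, the HSP70 of the mitochondrial matrix. Its level was 204, 213 and 215 CPM in Sham 1, 2 and 3 and 200.5, 195 and 188 CPM in OVX 1, 2 and 3. All OVX libraries were below all Sham libraries, by a log2 fold change of -0.12 ± 0.06 (SE) with an adjusted p of 0.811 in edgeR's test.

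The other HSP70 genes were at lower levels or close to even. Hspa13, which encodes a microsomal HSP70-like ATPase, was between 23.6 and 25.6 CPM in all libraries, with a log2 fold change of -0.03. Hspa14, which encodes a ribosome-associated HSP70, was between 67.4 and 91.2 CPM with a log2 fold change of 0.07, but it overlaps another annotated gene and its reads cannot be told apart from that gene's. The atypical Hspa12a and Hspa12b had log2 fold changes of -0.12 and -0.01. Hspa1l, a germ cell gene whose span begins 546 bases beyond that of Hspa1a, was between 20 and 39 reads in a library, with a log2 fold change of -0.22, and did not show the Hspa1a pattern, as its highest library was Sham 2.

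Among the HSP110 genes, the inducible Hsph1 was at 88.5, 73.5 and 76.6 CPM in Sham 1, 2 and 3 and at 70.7, 86.7 and 96.3 CPM in OVX 1, 2 and 3. The lowest library was OVX 1, so the order differed from that of Hspa1b. Hsph1 had a log2 fold change of 0.09 ± 0.13 (SE). The constitutive Hspa4 was between 271 and 311 CPM with a log2 fold change of 0.06, and Hspa4l was between 33.4 and 42.6 CPM with a log2 fold change of 0.04. Both of these turned slightly negative with scaling on the B cell genes.

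The HSP90 genes varied little between libraries. Hsp90aa1, the inducible cytosolic HSP90, was at 603, 520.2 and 573 CPM in Sham 1, 2 and 3 and at 560.3, 598 and 597 CPM in OVX 1, 2 and 3, with a log2 fold change of 0.05 ± 0.08 (SE). Its constitutive partner Hsp90ab1 was at 1781, 1605 and 1753 CPM in Sham 1, 2 and 3 and at 1687, 1702 and 1681 CPM in OVX 1, 2 and 3, with a log2 fold change of -0.02 ± 0.08 (SE). The groups overlapped for both. Trap1, the mitochondrial HSP90, was between 109 and 113 CPM in Sham and between 100.1 and 108 CPM in OVX, so all OVX libraries were lower, by a log2 fold change of -0.08 ± 0.06 (SE). The adjusted p of the HSP90 genes was 0.811 or higher in edgeR's test.

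Hspd1 (HSP60) and Hspe1 (HSP10) form the folding chamber of the mitochondrial matrix and are transcribed in opposite directions, their annotated spans sharing 96 bases on chromosome 1. Hspd1 was at 244, 243 and 248 CPM in Sham 1, 2 and 3 and at 221, 220.0 and 221 CPM in OVX 1, 2 and 3. The level was 244.9 ± 2.64 CPM in Sham and 220.8 ± 0.699 CPM in OVX, which is a small difference with little spread. The log2 fold change was -0.15 ± 0.06 (SE), with an unadjusted p of 0.0325 and an adjusted p of 0.811 in edgeR's test, and it was between -0.16 and -0.15 when each library was left out in turn. Of all genes tested, 99.2% had at least as large an SD over the Sham libraries. An SD over 3 libraries is imprecise. At 5439 to 7311 reads in an OVX library, the SD in OVX was below what counting noise alone would give. So small a spread does not make the difference firm. Hspe1 did not share the difference, at 92.1, 85.6 and 91.0 CPM in Sham 1, 2 and 3 and 80.6, 85.6 and 92.5 CPM in OVX 1, 2 and 3, with overlapping groups and a log2 fold change of -0.05 ± 0.07 (SE).

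The HSP40 genes held several of the larger positive values. Dnajb1, the inducible partner of HSP70, was at 126, 73.0 and 82.0 CPM in Sham 1, 2 and 3 and at 97.0, 125 and 134 CPM in OVX 1, 2 and 3. Dnaja1, abundant at rest, was at 253, 170.1 and 172 CPM in Sham 1, 2 and 3 and at 195, 255 and 307 CPM in OVX 1, 2 and 3. In both genes Sham 2 and Sham 3 were the lowest libraries and Sham 1 was within the OVX range.

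The log2 fold change was 0.34 ± 0.21 (SE) for Dnajb1 and 0.35 ± 0.21 (SE) for Dnaja1, each with an adjusted p of 0.811 in edgeR's test. Without Sham 1 these were 0.61 for Dnajb1 (unadjusted p = 0.00494) and 0.56 for Dnaja1 (unadjusted p = 0.0207), both with an adjusted p of 0.273. They were 0.19 for Dnajb1 and 0.24 for Dnaja1 without Sham 2, 0.25 and 0.18 without OVX 3, and 0.14 and 0.12 with the neutrophil share as a covariate. Dnajb4, another inducible HSP40 gene, was at 18.4, 16.4 and 16.8 CPM in Sham 1, 2 and 3 and at 20.2, 19.3 and 20.3 CPM in OVX 1, 2 and 3. All OVX libraries were above all Sham libraries, by a log2 fold change of 0.21 ± 0.10 (SE) with an unadjusted p of 0.0767 and an adjusted p of 0.811 in edgeR's test, and 0.1 in the exact permutation test.

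Of the other HSP40 genes, Dnajc7, which also binds HSP90, was at 853, 596 and 702 CPM in Sham 1, 2 and 3 and at 747, 840 and 761 CPM in OVX 1, 2 and 3. Its low libraries were again Sham 2 and Sham 3. The log2 fold change was 0.13 for Dnajc7, 0.08 for Dnaja2, 0.04 for the mitochondrial Dnaja3 and 0.04 for Dnajb6, which restrains protein aggregation. It was -0.10 for Dnajb2 and, at 9 to 41 reads in a library, -0.49 for Dnaja4. None of these had an unadjusted p under 0.05.

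The genes listed as small heat shock proteins, most of which hold unfolded proteins without using ATP, were scarce. Hspb1 had at most 5 reads in a library, and its counts of 5, 1 and 2 in Sham and 5, 0 and 1 in OVX are too few to compare. Cryab, the lens crystallin that is also heat-inducible, had 0, 2 and 3 reads in Sham 1, 2 and 3 and 7, 6 and 6 reads in OVX 1, 2 and 3. Hspb8, a partner of Bag3, had 1, 5 and 3 reads in Sham and 15, 17 and 6 reads in OVX. These genes were not tested. For Cryab and Hspb8 all OVX libraries were above all Sham libraries (exact permutation p = 0.1 each), at a depth where single reads matter. The tested genes of this list, Hspb6 and Hspb11, had log2 fold changes of -0.13 and -0.33, with overlapping groups.

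Bag3, an HSF1-induced cochaperone of HSP70 in selective autophagy, ran opposite to Hspa1a and Hspa1b across the Sham libraries. It had 27, 74 and 65 reads in Sham 1, 2 and 3 and 39, 38 and 42 reads in OVX 1, 2 and 3, or 1.14, 2.60 and 2.61 CPM in Sham and 1.59, 1.34 and 1.27 CPM in OVX. Sham 2 and Sham 3 were the highest libraries and Sham 1 the lowest. The log2 fold change of Bag3 was -0.60 ± 0.36 (SE), with an adjusted p of 0.811 in edgeR's test, and it was -0.90 without Sham 1 (unadjusted p = 0.0121, adjusted p = 0.273), -0.43 without Sham 2, -0.44 without Sham 3 and -0.30 with the neutrophil share as a covariate.

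The cochaperones that serve HSP90 were close to even. Stip1, which bridges HSP70 and HSP90, had a log2 fold change of 0.03, Ahsa1, which speeds the HSP90 ATPase, of -0.02, and Chordc1 of 0.10. Bag1, a nucleotide exchange factor, had 0.10. Bag2, which inhibits the ubiquitin ligase partner of HSP70, was between 4.82 and 8.44 CPM in Sham and between 3.77 and 4.92 CPM in OVX, with a log2 fold change of -0.51 ± 0.25 (SE), an unadjusted p of 0.0822 and overlapping groups.

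Hsf1, the main heat shock factor, was at 56.3, 63.7 and 56.6 CPM in Sham 1, 2 and 3 and at 62.1, 55.4 and 59.2 CPM in OVX 1, 2 and 3. Its log2 fold change was 0.00 ± 0.08 (SE), and its RNA level did not follow that of Hspa1a, since Sham 1 held the second lowest level. HSF1 is controlled mainly as a protein, which these libraries do not measure. Hsf2 was at 13.7, 12.8 and 13.2 CPM in Sham 1, 2 and 3 and at 15.3, 16.3 and 14.8 CPM in OVX 1, 2 and 3. All OVX libraries were above all Sham libraries, by a log2 fold change of 0.22 ± 0.11 (SE) with an unadjusted p of 0.0888 and an adjusted p of 0.811 in edgeR's test. Hsf4, the lens factor, had between 11 and 51 reads in a library and a log2 fold change of -0.78 ± 0.44 (SE) with overlapping groups.

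**Figure D3:**
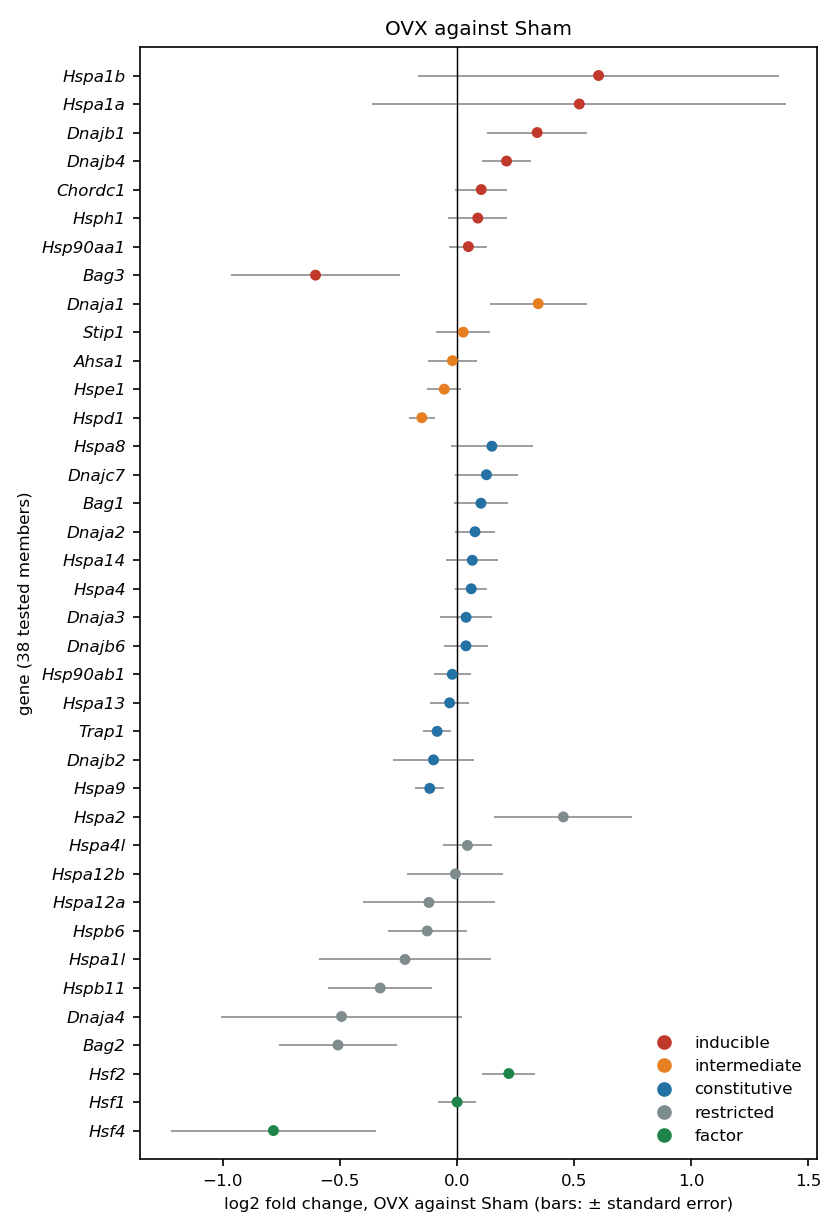
Log2 fold change of OVX against Sham (horizontal axis) for the 38 tested chaperone genes (vertical axis, grouped by class). Points are edgeR estimates and bars are ± 1 standard error. The values run from -0.78 (Hsf4) to 0.60 (Hspa1b), and none passed the threshold.

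By class, 7 of 8 tested inducible genes were higher in OVX at any size, and their median log2 fold change was 0.16, or 0.10 over the 6 tested without Hspa1a and Hspa1b. The exception was Bag3, and Hsp90aa1 also turned slightly negative with scaling on the B cell genes. Of the 13 constitutive genes 8 were higher and 5 lower, with a median of 0.04. Of the 5 intermediate genes 2 were higher and 3 lower, with a median of -0.02. Of the 9 tested restricted genes 2 were higher and 7 lower, with a median of -0.13. The median of the heat shock factors was 0.00. None of the inducible genes had an unadjusted p under 0.05. With the neutrophil share as a covariate the median of the inducible class was 0.00 (-0.0042), so its direction rests on how the libraries are modelled.

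Sham 2 and Sham 3 were the lowest libraries for 12 of 38 tested members (31.6%), against 17.5% of all genes tested. The 12 were Hspa1a, Hspa1b, Hspa2, Hspa14, Dnaja1, Dnaja2, Dnajb1, Dnajb4, Dnajc7, Bag1, Chordc1 and Hsf2, which include 5 of the 8 tested inducible genes (62.5%) and 4 of the 13 constitutive ones (30.8%). In the lists described below, the pattern held for 8 of 14 genes of the chaperonin CCT and prefoldin (57.1%). It held for 30.8% of the 13 tested genes otherwise linked to HSF1 and for 16.7% of 24 further cochaperone genes. The pattern was thus not particular to the inducible class. The reverse, with Sham 2 and Sham 3 as the highest libraries, held for 4 members, Hspa9, Hspb11, Dnaja4 and Bag3, against 15.2% of all genes tested. Sham 2 alone was the lowest library for 20 members (52.6%), against 28.8% of all genes. Without Sham 1, 8 of 38 members (21.1%) had an unadjusted p under 0.05, namely Hspa1a, Hspa1b, Hspa2, Dnaja1, Dnajb1, Dnajc7, Bag3 and Hspd1, but so did 2698 of 16051 genes (16.8%), and none of either was called.

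The spread between the Sham libraries separated the HSP70 pair from the other chaperones. The SD of log2(CPM + 0.5) over the Sham libraries was 1.53 for Hspa1b and 1.40 for Hspa1a, against a median of 0.18 over all genes tested, and Hspa1b ranked 9 among all of them by this measure. Over the OVX libraries the SD was 0.64 for Hspa1b and 0.35 for Hspa1a, against a median of 0.13. Hspa1a was not set apart there, since Dnaja1 had 0.33 and 14.4% of all genes tested had at least the SD of Hspa1a. Without this pair, the inducible class had a median SD of 0.16 in Sham and 0.13 in OVX, which is close to the 0.16 of the constitutive class in Sham and above its 0.06 in OVX. Sham 1 set the value for the whole inducible class, whose median SD in Sham was 0.29 with all libraries and 0.07 without Sham 1. The least variable member in both groups was Hspd1, with 0.02 in Sham and below 0.01 in OVX. Hsp90ab1 followed it in OVX, with 0.01, but not in Sham, where its SD was 0.08.

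**Figure D4:**
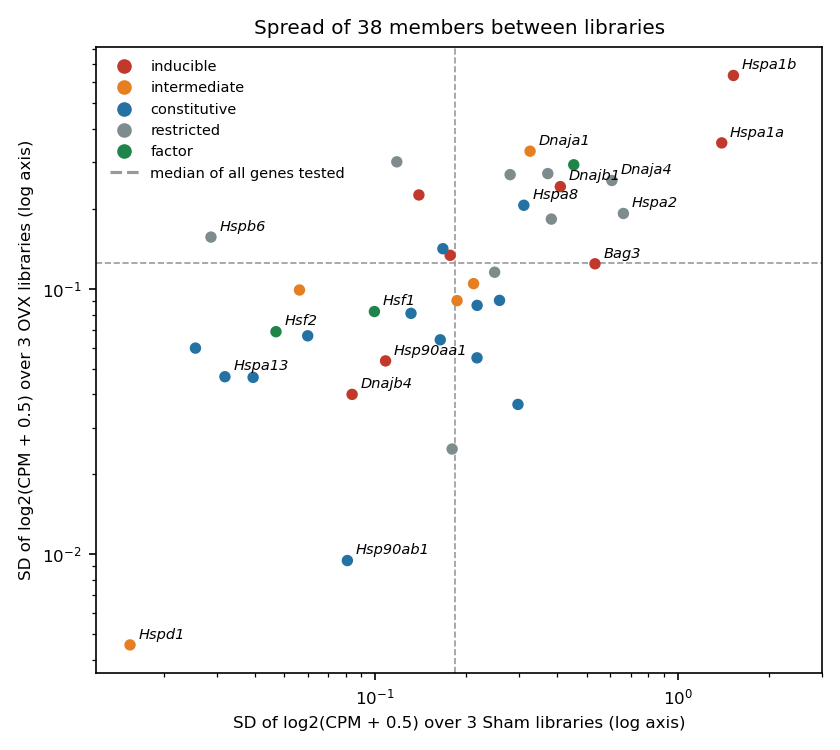
SD of log2(CPM + 0.5) over the 3 Sham libraries (horizontal log axis) and over the 3 OVX libraries (vertical log axis) for the 38 tested chaperone genes, coloured by class. Dashed lines mark the medians of all genes tested, 0.18 in Sham and 0.13 in OVX. Hspa1a and Hspa1b lie alone at the upper right, and Hspd1 at the lower left.

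Ratios of an inducible gene to its constitutive paralog within one library do not depend on how libraries are scaled. Hspa1a plus Hspa1b came to 1.51, 0.250 and 0.342 reads per 100 reads of Hspa8 in Sham 1, 2 and 3 and to 0.808, 0.889 and 1.48 in OVX 1, 2 and 3. The highest ratio was 6.02 times the lowest, both in Sham. On the log2 scale the ratio was 1.02 higher in OVX, with an SD of 1.38 in Sham and 0.47 in OVX, so the difference was smaller than the spread between Sham libraries. Dnajb1 came to 92.4, 67.5 and 66.6 reads per 100 of Dnajb6 in Sham 1, 2 and 3 and to 80.5, 94.8 and 107 in OVX 1, 2 and 3, with Sham 2 and Sham 3 again the lowest.

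The other pairs varied little. Hsph1 came to 30.1, 27.1 and 26.6 reads per 100 of Hspa4 in Sham and to 24.0, 27.9 and 33.9 in OVX, the highest being 1.42 times the lowest. Hsp90aa1 came to 33.9, 32.4 and 32.7 reads per 100 of Hsp90ab1 in Sham and to 33.2, 35.1 and 35.5 in OVX, the highest being 1.10 times the lowest. The groups overlapped for all of these ratios, which are counts of reads and, being uncorrected for transcript length, do not compare the amounts of transcripts.

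**Figure D5:**
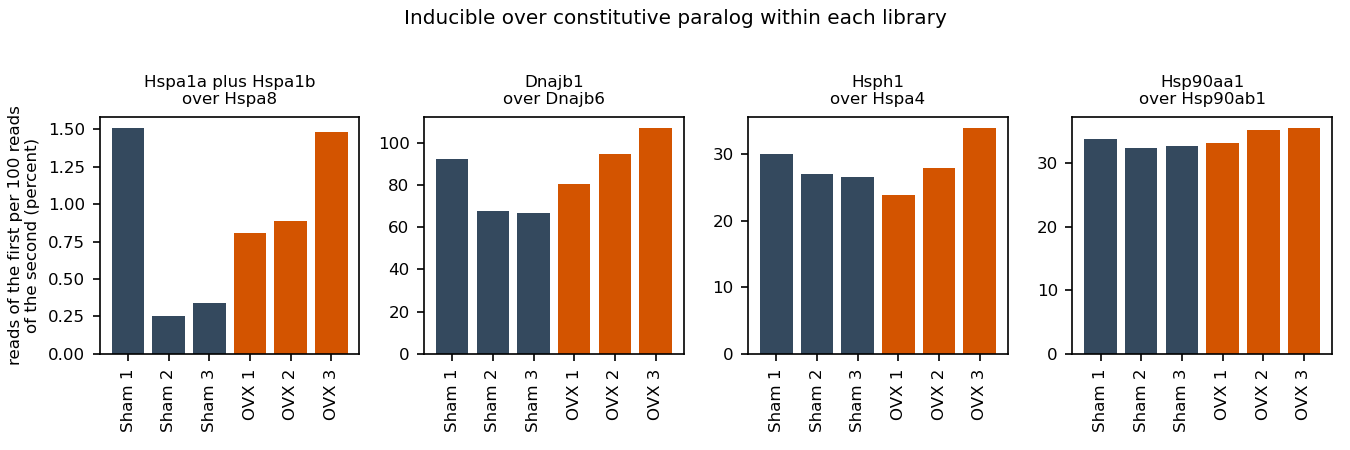
Reads of an inducible chaperone gene per 100 reads of its constitutive paralog (vertical axes, percent, each from 0) in each library (horizontal axis), for Hspa1a plus Hspa1b over Hspa8, Dnajb1 over Dnajb6, Hsph1 over Hspa4 and Hsp90aa1 over Hsp90ab1. The first ratio runs from 0.250 in Sham 2 to 1.51 in Sham 1, while the last stays between 32.4 and 35.5.

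Heat shock elements, the sites of HSF1, are repeats of a unit of GAA and its inverse TTC with spacers between them. RefSeq promoters (GRCm38.p6) matched 33 of the 41 members, with none in the table for Hspa8, Hspa9, Hspa13, Hsp90aa1, Hsp90ab1, Cryab, Hsf1 and Hsf4. The letters GAANNTTC or TTCNNGAA, each of which reads the same on both strands, were found in promoters of 14 members (42.4%). At the level of promoters they were in 16 of 45 for the members and in 15.1% of all 32851 in the table. Where GAA and TTC units alternate at least 3 times with the same spacing, a stricter form that contains the shorter ones, promoters of 5 members matched (15.2%). At the level of promoters 7 of 45 matched, against 0.603% of all promoters. The 7 are not separate sites. Hsph1 and Dnajb6 each have overlapping windows that hold the same match, and Hspd1 and Hspe1 share a stretch. The 5 were Hspd1, Hspe1, Hsph1, Dnajb6 and Chordc1. Only these exact letters were searched, a match is not a shown binding site, and no match says only that the letters are not in that window.

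The stretches below hold those matches in capitals, each of 60 bases. They are shown because the genes with the strictest exact matches were not the ones that varied most between the Sham libraries. The Hspe1 stretch is chr1:55088038-55088097 on the plus strand, with the match at -89 to -72 from its start, and the opposite strand of the same bases is in an Hspd1 promoter. That of Hsph1 is chr5:149636266-149636325 on the minus strand, that of Dnajb6 is chr5:29735828-29735887 on the plus strand, and that of Chordc1 is chr9:18292244-18292303 on the plus strand, where the last match runs past the end shown. For Dnaja1, which has only the shorter form, the stretch is chr4:40722318-40722377 on the plus strand.
Hspe1: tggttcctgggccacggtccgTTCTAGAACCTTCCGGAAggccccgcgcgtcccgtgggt
Hsph1: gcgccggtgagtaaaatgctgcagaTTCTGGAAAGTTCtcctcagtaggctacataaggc
Dnajb6: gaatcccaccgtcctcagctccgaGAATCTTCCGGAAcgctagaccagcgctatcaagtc
Chordc1: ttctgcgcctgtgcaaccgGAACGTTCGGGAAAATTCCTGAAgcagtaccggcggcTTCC
Dnaja1: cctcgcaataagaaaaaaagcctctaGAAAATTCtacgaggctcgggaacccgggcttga

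Hspa1a and Hspa1b each hold a single exact match of the shorter form, the letters gaagattc in the promoters printed above, at -104 to -97 from the start. It ends a longer run, gaaactgctggaagattc, in which tgc stands at the place of ttc and differs by a single base. The stretch gaaacctctggagagttctggac in both promoters also has inexact units at this spacing. Such units were not counted, so the forms compared here do not measure the full elements of a promoter. The 5 members with the stricter form had an SD of at most 0.18 over the Sham libraries, against 1.53 for Hspa1b with the shorter form. Apart from Hspa1a and Hspa1b, tested members with only the shorter form ran from 0.03 (Hspb6) to 0.61 (Dnaja4). Over the OVX libraries the 5 ran from below 0.01 (Hspd1) to 0.23 (Hsph1), against a median of 0.13 over all genes tested. Whether the form goes with the spread was not tested. Dnajb1, with the pattern of Hspa1b across libraries, held neither form in its promoters. Bag3, with the opposite pattern, held 1 match of the shorter form, at 42 to 49 bases after its start.

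Other genes of the protein folding system also showed 0 calls. Of 14 subunits of the cytosolic chaperonin CCT and its helper prefoldin, 11 were higher and 3 lower (78.6% higher, against 48.2% of all genes), the median log2 fold change was 0.03 and none was at an unadjusted p under 0.05. These directions are from the main scaling, and scaling on the B cell genes shifted the median over all genes tested by -0.06. All OVX libraries were above all Sham libraries for 1 of them, the prefoldin subunit gene Pfdn2 (log2 fold change 0.09), which is 7.14% of the list against 4.33% of all genes. Of 24 further cochaperone genes, 15 were higher and 9 lower (62.5% higher), with a median of 0.02 and none at an unadjusted p under 0.05. Among these, all OVX libraries were above for the J domain gene Dnajb12 (0.09) and below for Ppid (-0.08), an HSP90-binding cyclophilin, each 4.17% of the list, against 4.33% above and 4.12% below over all genes.

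Of 15 genes otherwise linked to HSF1 or its targets, 13 were tested, of which 10 were higher and 3 lower (76.9% higher, against 48.2% of all genes), and the median log2 fold change was 0.09. Dedd2 had the lowest p of this list. It was at 83.9, 77.2 and 78.5 CPM in Sham 1, 2 and 3 and at 88.2, 94.5 and 94.3 CPM in OVX 1, 2 and 3, so all OVX libraries were higher, by a log2 fold change of 0.21 ± 0.06 (SE) with an unadjusted p of 0.0139 and an adjusted p of 0.811 in edgeR's test. For Vcp, an ATPase that extracts proteins for degradation, all OVX libraries were also above (log2 fold change 0.08 ± 0.07), so that 2 of the 13 tested (15.4%) had all OVX libraries above, against 4.33% of all genes. The summed share of the 41 members themselves was 0.777%, 0.635% and 0.689% of the reads in Sham 1, 2 and 3 and 0.683%, 0.744% and 0.745% in OVX 1, 2 and 3, with overlapping groups.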

How the data were processed

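RNA-seq counts per Ensembl gene of 3 Sham and 3 OVX libraries of bone marrow B cells were analysed. Groups and replicate numbers came from the sample labels. The HIF-1α ChIP and input libraries were left out. Read counts were deposited by the authors as whole numbers without any scaling. The submitters' processing notes name CASAVA, Bowtie 0.12.2 and mm10, whereas the counting tool, annotation and use of strand are not given in the sources used here, so reads of near-identical or overlapping genes may be divided arbitrarily. For RNA-seq, the labels name Trizol for RNA extraction and the methods name RNA-Solv or RNeasy.

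Symbols matched 54409 of 54532 identifiers. Totals were 23838775 to 33136701 counts per library, and no molecular identifiers are stated. In R 4.3.3, edgeR 4.0.16 (filterByExpr by group, TMM, quasi-likelihood test without a block, Benjamini-Hochberg over 15305 genes) compared OVX with Sham. The standard error is the log2 fold change divided by the square root of F. For single values, OVX and Sham were set against each other in an exact two-sided permutation test of log2(CPM + 0.5). The test was tried on simulated counts. The members, classes and lists were chosen with earlier results of these data known. All 41 members were reported, with values in every library for those with a mean of at least 20 counts that the results turn on and ranges or fold changes for the rest, and from other lists only counts and genes with an unadjusted p under 0.05 or groups that do not overlap. Alternatives were DESeq2 1.42.0, library size only, scaling on 12 B cell genes, no filter, a mean of at least 10 counts, the replicate block, the neutrophil share as covariate and leaving out each library. Leaving Hspa1a and Hspa1b out of their class, and rescaling the spread, were added after the data were seen. Promoters were read from a RefSeq table (GRCm38.p6).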

Additional observations from a re-analysis of the deposited data

How the results depend on the processing

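No member and no gene was called under any of 13 alternatives, and the lowest adjusted p of a member was 0.273, without Sham 1. Of 494 log2 fold changes of members under the alternatives, 42 changed sign. Scaling on 12 B cell genes shifted the median over all genes tested by -0.06 (log2). With it, the log2 fold change was -0.0033 for Hspa4, -0.0185 for Hspa4l, -0.0151 for Hsp90aa1, -0.0270 for Dnaja3, -0.0254 for Dnajb6, -0.0377 for Stip1 and -0.0595 for Hsf1. Hsf1 was also at -0.0195 with library size only and -0.0025 without a filter. With the neutrophil share as covariate, the log2 fold change was -0.0919 for Hspa1a, -0.0713 for Hspa1b, 0.0443 for Hspa12a, -0.0159 for Hsph1, -0.0172 for Dnaja2, -0.0043 for Dnaja3, -0.0168 for Stip1 and -0.0035 for Hsf1, and the median of the inducible class was -0.0042. The cause was not tested. The count of members at an unadjusted p under 0.05, which was 1 (Hspd1), was 0 with DESeq2 and without a filter.

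Equal replicate numbers gave no sign of paired libraries, since the correlation of same-numbered deviations was -0.47, -0.24 and -0.34. With 3 libraries a group and Sham libraries that differed widely, these values cannot exclude pairing. With the replicate block, 0 members were at an unadjusted p under 0.05, as were 206 genes (1.35%) against 574 (3.75%) without it, and 0 genes were called.

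Leaving out 1 library at a time, the count of members at an unadjusted p under 0.05 was 0 to 8, with 8 without Sham 1 and 2 without Sham 2, and the median log2 fold change of the restricted class was -0.318 to -0.0412. The median was -0.01 to 0.08 over all members tested, 0.03 to 0.23 for the inducible, -0.09 to 0.09 for the intermediate, -0.02 to 0.12 for the constitutive class and -0.04 to 0.06 for the factors. The median SD of the inducible class in Sham was 0.0716 to 0.393. Signs turned for Ahsa1 (-0.103 to 0.0856), Bag1 (-0.0107 to 0.200), Dnaja3 (-0.0473 to 0.127), Dnajb2 (-0.202 to 0.0974), Dnajb6 (-0.0458 to 0.118), Hsf1 (-0.0367 to 0.0589), Hsp90aa1 (-0.0106 to 0.0947), Hsp90ab1 (-0.0676 to 0.0061), Hspa12a (-0.322 to 0.0670), Hspa12b (-0.183 to 0.141), Hspa14 (-0.0374 to 0.183), Hspa1l (-0.375 to 0.0530), Hspa4l (-0.0537 to 0.112), Hsph1 (-0.0133 to 0.204) and Stip1 (-0.0778 to 0.133). Few reads limit Hspb1, Cryab, Hspb8, Dnaja4 and Hsf4, and with 3 libraries a group and Sham libraries that differed widely from each other, a missed threshold does not show equal levels.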

Other observations

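The immediate early genes, 18 in number, were mostly lower in OVX at any size: 3 were higher and 15 lower (16.7% higher, against 48.2% of all genes tested), the median log2 fold change was -0.19, and edgeR called none. There were 3 at an unadjusted p under 0.05 (16.7%), against 3.75% of all genes. Atf3, a stress-induced transcription factor, had a log2 fold change of -1.53 ± 0.51 (SE) with overlapping groups. Egr3 had -0.26 ± 0.11 and was lower in all OVX libraries than in all Sham libraries, which held for 4.12% of all genes, at 30.5, 37.7 and 31.1 CPM in Sham and 27.7, 26.6 and 28.4 CPM in OVX. Btg2, an antiproliferative gene, had 0.30 ± 0.12 with overlapping groups. The adjusted p was 0.811 for each.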
